A study of Mus musculus with 5 samples.

Results

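The circadian clock was followed through 10 of the 27998 genes counted in 5 single-cell RNA libraries of mouse pancreas and pancreatic tumour. The 10 genes are Dbp, Tef, Hlf, Nr1d1, Nr1d2, Per1, Per2, Per3, Ciart and Arntl. They were chosen by the Dbp level of earlier results on these data, far lower in fibroblasts of 1 tumour than in normal pancreas, so that difference is given here as a description and supports nothing. The question was whether the genes are shifted in the same direction in fibroblasts, macrophages, T cells and epithelial or tumour cells of a library, as the hour of harvest would give. The labels give no hour of harvest.

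Each group is 1 library made with the 10x Chromium 3' v2 kit from untreated mice. Normal pancreas was taken at 60 days of age, early KIC tumour at 40 days, late KIC tumour at 60 days and late KPC tumour at 6 months, all on a mixed C57BL/6 and FVB background. Late KPfC tumour was taken at 60 days on C57BL/6. As the names are generally used, KIC, KPfC and KPC mice all have a pancreas-driven Cre, with loss of Cdkn2a in KIC, loss of a floxed Trp53 in KPfC and a point-mutant Trp53 in KPC. Such a Cre acts in the pancreatic epithelium and its descendants, so the tumour cells carry the alleles and the stroma and leukocytes around them do not. With 1 library a group no condition can be tested. Model, age, strain, sex, tissue handling and hour of harvest cannot be told apart, and every interval below covers counting error only.

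The mammalian clock is a feedback loop of transcription that runs in nearly every cell. Arntl (BMAL1) pairs with Clock or Npas2, binds E-boxes and switches on the period genes, Ciart, the REV-ERB repressors Nr1d1 and Nr1d2, and the output factors Dbp, Tef and Hlf. The REV-ERB proteins in turn repress Arntl, so Arntl RNA peaks when Dbp and Nr1d1 RNA are low, and Per2 RNA peaks later in the day than Dbp and Nr1d1. Dbp, Tef and Hlf are bZIP factors that bind D-boxes, a second class of clock element.

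Clock factors act through E-boxes and D-boxes, and 4 promoters that hold one near the start are printed to show where these letters lie. RefSeq (GRCm38.p6) gave 12 promoter entries for 9 of the 10 members, and Per2 had none. The start is that of the entry, and the Per1 and Tef windows printed here lie within the GENCODE genes given below. In the 250 bases before the start, the E-box CACGTG, which reads the same on both strands, was found in 3 members, Ciart, Per1 and Tef. Per1 and Tef each had a second entry. That of Per1 (chr11:69099902-69100151) held no E-box, and that of Tef (chr15:81811164-81811413) held 1 at 138 bases. Across all 32851 windows of that length, counted per entry and not per gene, 6.02% held it. The D-box TTATGTAA, searched also as TTACATAA, was found in 1 member, Per3, against 0.819% of windows. The ROR element (RORE), through which REV-ERB proteins act, was searched on both strands and was in none of the members' windows and in 0.493% of all windows. The motifs do not overlap. Capitals mark the matches, and each sequence runs 5′ to 3′ on the gene's strand, ending at the base before the start. Ciart is chr3:95882229-95882478 on the minus strand, with E-boxes that begin 116, 58 and 44 bases before the start. Per1 is chr11:69098699-69098948, plus strand, with an E-box that begins 166 bases before the start. Tef is chr15:81802423-81802672, plus strand, with an E-box at 127 bases. Per3 is chr4:151044666-151044915, minus strand, with D-boxes at 205 and 158 bases.
Ciart: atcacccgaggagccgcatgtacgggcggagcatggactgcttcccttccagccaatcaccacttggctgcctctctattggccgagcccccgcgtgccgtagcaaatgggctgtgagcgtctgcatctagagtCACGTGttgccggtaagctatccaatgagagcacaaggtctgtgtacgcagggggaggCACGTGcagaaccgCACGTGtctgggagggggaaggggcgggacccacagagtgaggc
Per1: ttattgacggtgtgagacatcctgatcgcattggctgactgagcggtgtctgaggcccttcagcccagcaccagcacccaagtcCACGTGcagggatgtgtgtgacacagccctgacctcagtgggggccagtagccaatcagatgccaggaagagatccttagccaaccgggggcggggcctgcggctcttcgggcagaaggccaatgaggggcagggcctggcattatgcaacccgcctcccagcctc
Tef: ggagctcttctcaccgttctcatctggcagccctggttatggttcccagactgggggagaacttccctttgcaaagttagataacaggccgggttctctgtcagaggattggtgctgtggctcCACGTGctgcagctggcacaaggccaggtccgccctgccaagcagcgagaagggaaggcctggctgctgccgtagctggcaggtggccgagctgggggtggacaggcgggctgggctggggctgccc
Per3: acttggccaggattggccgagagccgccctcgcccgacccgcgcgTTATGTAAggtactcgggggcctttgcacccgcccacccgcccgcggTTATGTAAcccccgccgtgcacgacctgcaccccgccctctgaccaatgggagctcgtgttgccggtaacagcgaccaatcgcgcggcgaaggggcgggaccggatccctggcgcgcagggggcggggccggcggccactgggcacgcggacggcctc
The genes themselves lie, in GENCODE M21 on GRCm38, at chr7:45705088-45710203 (Dbp), chr15:81802421-81826863 (Tef), chr11:90336536-90390895 (Hlf), chr11:98767932-98775333 (Nr1d1) and chr14:18204054-18239127 (Nr1d2). The period genes lie at chr11:69095217-69109960 (Per1), chr1:91415982-91459324 (Per2) and chr4:151003652-151044665 (Per3), Ciart at chr3:95878503-95882251 and Arntl at chr7:113207465-113314126. A match is a string of letters and was not tested for binding, and no match says only that these letters are absent from this window.

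After filtering, 10718 cells remained, between 836 in late KIC and 3529 in early KIC, and total counts per library ranged from 3488871 to 26749820 unique molecular identifiers (UMIs, 1 per captured transcript). Fibroblasts were cells with at least 30 UMIs of Col1a1, Col1a2, Col3a1 and Dcn per 10000 and 0 UMIs of Ptprc, the leukocyte gene CD45. They numbered 436 in normal pancreas, 1408 in early KIC, 82 in late KIC, 169 in late KPfC and 113 in late KPC. In the same order, marker-named clusters gave 49, 766, 298, 1748 and 524 macrophages, 225, 33, 28, 38 and 93 T or natural killer (NK) cells, and 9, 355, 281, 495 and 61 epithelial or tumour cells. All 10 fibroblast markers, among them Pdgfra and Lum, were detected in the fibroblasts of every library. Within 10 UMIs per 10000 below the fibroblast limit lay 1, 26, 0, 7 and 7 cells with 0 Dbp UMIs in all, and as close above it 2, 18, 2, 5 and 8 cells with 1, 1, 0, 1 and 0 Dbp UMIs. Pairs of libraries shared between 1 and 17 cell barcodes.

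Fibroblasts were not the same kind of cell in every library. Of the fibroblasts by the collagen limit, 149 of 169 in late KPfC, 48 of 113 in late KPC and 34 of 82 in late KIC lay in a mesothelial-like cluster (Msln, Upk3b, Wt1), against 44 of 436 in normal pancreas and 36 of 1408 in early KIC. The summed level of 7 mesothelial markers in fibroblasts was 993, 383, 1059, 1951 and 606 counts per 1000000 UMIs (CPM) in the order above. Median UMIs per fibroblast were 5165.5, 1739, 14260, 12015 and 2932. Sex also differed. Cells of early KIC and late KPC had Xist (2925 and 737 cells with Xist and no Y-linked UMI, against 1 and 0 with the reverse), late KPfC cells had Y-linked UMIs (1734, against 0 with Xist only), and normal pancreas (658 and 123) and late KIC (344 and 272) held both kinds. These 2 libraries go against a single mouse each, which the design text gives, and their values are also given for each kind of cell.

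Dbp, which encodes an activator that carries the clock's timing to metabolic genes, had the largest difference in CPM between libraries among the members in fibroblasts. It gave 290 UMIs in normal pancreas (122 CPM, 95% Poisson interval 108 to 137), 22 in early KIC (7.90, 4.95 to 12.0), 15 in late KIC (11.5, 6.42 to 18.9), 70 in late KPfC (30.1, 23.5 to 38.1) and 9 in late KPC (18.4, 8.43 to 35.0). Normal pancreas stood above all 4 tumours with no overlap of intervals, and late KPfC stood above the 2 KIC libraries, while the intervals of early KIC, late KIC and late KPC overlapped. In epithelial or tumour cells the order was another: 98 UMIs gave 111 CPM in early KIC (90.2 to 135), against 6.73 in late KIC (51 UMIs), 5.87 in late KPfC (39 UMIs) and 16.8 in late KPC (6 UMIs). The interval of early KIC epithelium thus overlapped that of normal fibroblasts, in the library whose fibroblasts were lowest. The 9 epithelial cells of normal pancreas gave 6 UMIs (130.8 CPM). In macrophages Dbp was low throughout, at 2 UMIs (9.74 CPM) in normal pancreas and 3.99, 1.63, 1.41 and 0.660 CPM in early KIC, late KIC, late KPfC and late KPC.

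**Figure D1:**
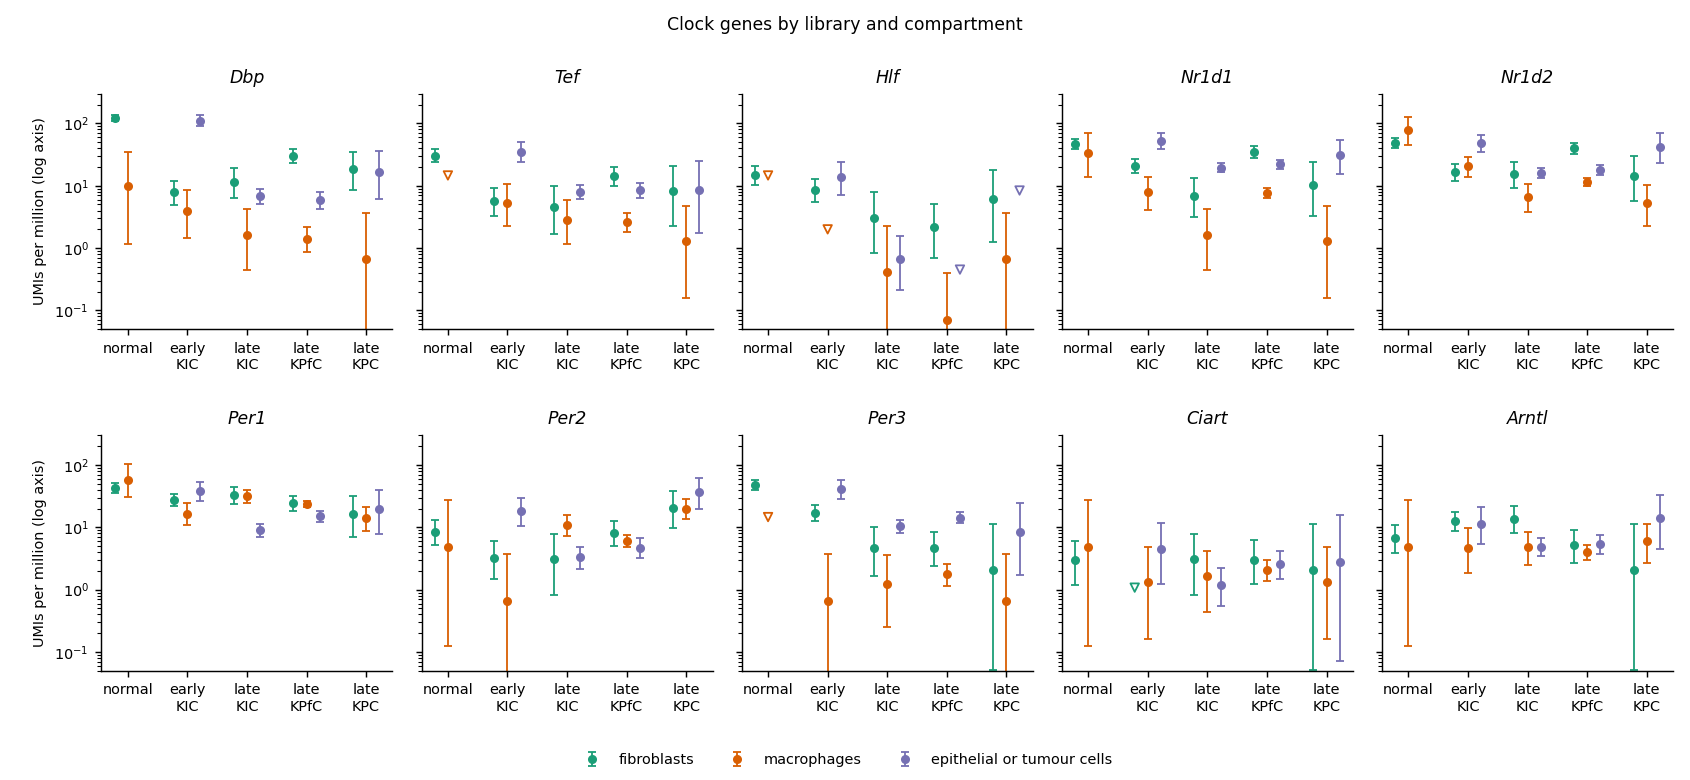
Level of each clock gene (CPM, log axis) in fibroblasts, macrophages and epithelial or tumour cells of the 5 libraries. Points are sums over cells with exact 95% Poisson intervals, some cut off by the axis, open triangles mark 0 UMIs at the level of 3 counts, and compartments under 30 cells are left out. Dbp of early KIC is at 7.90 in fibroblasts and at 111 in epithelial cells.

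Tef, a close relative of Dbp that binds the same element, had the same order of libraries in fibroblasts except that the 2 KIC libraries changed places. Its levels were 30.3 CPM in normal pancreas (72 UMIs), 5.75 in early KIC (16), 4.59 in late KIC (6), 14.2 in late KPfC (33) and 8.19 in late KPC (4). Tef in the epithelium was 35.1 CPM in early KIC (31 UMIs), 7.92 in late KIC (60), 8.43 in late KPfC (56) and 8.38 in late KPC (3). As with Dbp, early KIC was the highest tumour in epithelium and among the lowest in fibroblasts. Hlf, the third factor of the family, gave 35 UMIs in normal fibroblasts (14.7 CPM), 24 in early KIC (8.62), and 4, 5 and 3 in late KIC, late KPfC and late KPC (3.06, 2.15 and 6.14). In epithelial or tumour cells it had 12 UMIs in early KIC (13.6 CPM), 5 in late KIC (0.660) and 0 in late KPfC, where 0 UMIs allow up to 0.452 CPM. Hlf gave at most 1 UMI in the macrophages of any library.

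The REV-ERB genes encode haem-binding nuclear receptors that repress Arntl. Nr1d1 in fibroblasts was 47.2 CPM in normal pancreas (112 UMIs), 20.8 in early KIC (58), 6.88 in late KIC (9), 34.9 in late KPfC (81) and 10.2 in late KPC (5). In epithelial or tumour cells it was 52.1 (46 UMIs), 19.5 (148), 22.3 (148) and 30.7 CPM (11) in early KIC, late KIC, late KPfC and late KPC, so that late KIC and late KPfC, which were far apart in fibroblasts, overlapped in tumour cells. In macrophages it was 34.1 CPM in normal pancreas (7 UMIs), 7.98 in early KIC (12), 1.63 in late KIC (4), 7.76 in late KPfC (110) and 1.32 in late KPC (2). Fibroblasts and macrophages therefore shared their 2 lowest libraries, late KIC and late KPC. Nr1d2, its paralogue, was 49.3, 16.5, 15.3, 39.6 and 14.3 CPM in fibroblasts (117, 46, 20, 92 and 7 UMIs) and 77.9, 20.6, 6.53, 11.4 and 5.28 in macrophages (16, 31, 16, 162 and 8 UMIs). In tumour epithelium it was 47.6 in early KIC, 15.8 in late KIC, 17.9 in late KPfC and 41.9 in late KPC (42, 120, 119 and 15 UMIs).

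The period genes encode the repressors that close the loop, and Per1 also responds to glucocorticoids and to stress. Per1 was 43.0, 27.7, 32.9, 24.5 and 16.4 CPM in fibroblasts (102, 77, 43, 57 and 8 UMIs). In macrophages it was 58.4 in normal pancreas (12 UMIs), 16.6 in early KIC (25), 31.4 in late KIC (77), 23.8 in late KPfC (338) and 13.9 in late KPC (21). Per3, which is largely dispensable for rhythm in the mouse, was 47.6 CPM in normal fibroblasts (113 UMIs), 17.2 in early KIC (48), 4.59 in late KIC (6), 4.74 in late KPfC (11) and 2.05 in late KPC (1). Early KIC was thus the highest of the tumours for Per3 and the lowest for Dbp in the same cells. Among epithelial or tumour cells Per3 was 40.8 in early KIC, 10.4 in late KIC, 14.3 in late KPfC and 8.38 in late KPC (36, 79, 95 and 3 UMIs).

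Per2, whose RNA peaks later than that of Dbp and Nr1d1, was highest in late KPC in all 3 of these compartments. In fibroblasts it was 8.42, 3.23, 3.06, 8.18 and 20.5 CPM (20, 9, 4, 19 and 10 UMIs). In macrophages it was 4.87, 0.665, 11.0, 6.13 and 19.8 CPM (1, 1, 27, 87 and 30 UMIs). In epithelial or tumour cells it was 18.1 in early KIC, 3.30 in late KIC, 4.67 in late KPfC and 36.3 in late KPC (16, 25, 31 and 13 UMIs). The late KPC intervals lay above those of late KPfC in macrophages (13.4 to 28.3 against 4.91 to 7.57) and tumour cells (19.3 to 62.1 against 3.17 to 6.63) and overlapped them in fibroblasts (9.82 to 37.7 against 4.93 to 12.8).

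Ciart, a repressor of the Arntl and Clock pair, was rare, with 0 to 7 UMIs in the fibroblasts of each library and 0 to 29 in the other compartments. Early KIC fibroblasts had none, which allows up to 1.08 CPM, against 2.95 CPM in normal fibroblasts. Arntl, the activator itself, was 6.74 CPM in normal fibroblasts (16 UMIs), 12.6 in early KIC (35), 13.8 in late KIC (18), 5.17 in late KPfC (12) and 2.05 in late KPC (1). The 2 KIC libraries, with the lowest Dbp, had the highest Arntl. In tumour epithelium Arntl was 11.3 CPM in early KIC (10 UMIs), 4.88 in late KIC (37), 5.42 in late KPfC (36) and 13.96 in late KPC (5), and in macrophages it stayed between 3.95 and 5.94 CPM in all 5 libraries. T or NK cells gave too few UMIs to compare, with no more than 20 of any member in a library. Their Per1 was 19.97 CPM in normal pancreas (20 UMIs), 0 UMIs in early KIC, and 32.6, 18.1 and 9.03 CPM in late KIC, late KPfC and late KPC (9, 3 and 1 UMIs). Acinar secretory transcripts made up 46.3% of T or NK cell UMIs in normal pancreas and 9.41% in early KIC, and their part in these levels was not tested.

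Ratios were taken where both libraries had at least 30 cells and the gene at least 20 UMIs over both, and a difference of at least 2-fold was counted. A gene with 0 UMIs in 1 library had no ratio where setting the 0 at 3 counts would have reversed its side. Such a gene is not among the measured members. In fibroblasts of early KIC against normal pancreas, the comparison that chose the members, 6 of 9 measured members were lower by that much and 0 higher, beside 5.22% and 7.56% of 10251 genes. Dbp was 15.5-fold lower (95% interval of the ratio 10.0 to 25.05), Tef 5.28-fold, Nr1d2 2.98-fold, Per3 2.76-fold, Per2 2.61-fold and Nr1d1 2.26-fold. With the Y-only normal cells alone, the Per3 log2 ratio was -0.41. Arntl was the only measured member on the other side of 1, at 1.87-fold higher (1.01 to 3.61). Macrophages could be compared for 2 members, and both were lower (background 6.42%): Nr1d2 3.78-fold (1.93 to 7.12) and Per1 3.51-fold (1.61 to 7.25). In these macrophages 8 of 16 genes induced by tissue dissociation were at least 2-fold lower too (median log2 ratio -1.003), against 1 of 16 in fibroblasts, and their part in the Per1 value was not tested.

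Acinar cells of early KIC and normal pancreas had a smaller Dbp ratio than fibroblasts, with a wide interval. Their Dbp was 2.74 CPM (3 UMIs) against 4.90 (41 UMIs), 1.79-fold lower with an interval from 0.570 to 9.02. Nr1d1 was 10.1 against 14.2 CPM (1.41-fold lower, 0.762 to 2.91), and Per1 was 12.8 against 4.18, so higher in early KIC. Arntl made up 66.7% of the Arntl and Dbp UMIs in early KIC acinar cells (29.9% to 92.5%) and 8.89% in normal ones (2.48% to 21.2%), on the same side as in fibroblasts, on 9 and 45 UMIs. The median log2 ratio of all 5552 genes measured in acinar cells was 1.14, so most members' acinar ratios were low relative to other genes. Digestive enzymes and like secretory products made up 82.3% of acinar UMIs in normal pancreas and 65.0% in early KIC, and their part in the ratios was not tested. Endocrine-like cells, 28 in normal pancreas and 184 in early KIC, gave 19.2 and 16.7 CPM of Dbp (12 and 22 UMIs), with wide overlap.

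Between late KIC and early KIC the compartments differed in which genes moved apart. In epithelial or tumour cells all 8 measured members were at least 2-fold lower in late KIC, beside 27.5% of 11155 genes, with a median log2 ratio over all genes of -0.34. Dbp was 16.5-fold lower (11.6 to 23.6), Per2 5.50-fold, Tef 4.44-fold, Per1 4.29-fold, Per3 3.91-fold, Nr1d2 3.01-fold, Nr1d1 2.67-fold and Arntl 2.32-fold (1.03 to 4.76). Arntl thus stood on the same side as the genes it activates. In these cells 8 of 16 genes induced by tissue dissociation were at least 2-fold lower too and 0 higher (median log2 ratio -0.97). Their part in these ratios was not tested. These cells were of unlike kinds: 348 of the 355 in early KIC were duct-like cells of 1 cluster, and 245 of the 281 in late KIC were of a cluster led by mesenchymal tumour markers. The 36 late KIC cells of the epithelial tumour cluster had Dbp at 17.9 CPM (8 UMIs) and Per3 at 51.4 (23 UMIs), against 6.03 and 7.86 in the mesenchymal cluster.

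In fibroblasts of the same 2 libraries 3 of 8 members were lower and 0 higher, beside 15.7% and 8.15% of 9806 genes, and Dbp was not among them, at 1.45-fold higher (0.700 to 2.93). The 3 were Per3 (3.76-fold, 1.61 to 10.7), Nr1d1 (3.03-fold, 1.49 to 6.95) and Hlf (2.82-fold, 0.969 to 11.2). In macrophages 1 of 3 was lower (background 8.69%), Nr1d2 by 3.16-fold (1.67 to 6.18), and 1 higher (background 10.4%), Per2, with 27 UMIs against 1 (16.6-fold, 2.73 to 678). Per2 therefore stood higher in macrophages and lower in epithelial or tumour cells of the same pair of libraries.

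Late KIC and late KPfC were of the same age. In fibroblasts 5 of 7 members were lower in late KIC (background 12.2%) and 1 higher (background 5.62%). Nr1d1 was 5.07-fold lower (2.54 to 11.5), Tef 3.10-fold, Per2 2.68-fold (0.889 to 10.8), Dbp 2.63-fold (1.49 to 4.94) and Nr1d2 2.59-fold, while Arntl was 2.66-fold higher (1.21 to 6.06). With the Xist-only cells of late KIC alone, the log2 ratios of Dbp (-0.47), Tef (-0.71) and Per2 (-0.91) were within 2-fold. Tef was also within 2-fold with a collagen limit of 100 (-0.92) and in mesothelial-like cells alone (-0.62). In tumour epithelium 8 of 9 members were within 2-fold, with Dbp at 1.15-fold (0.741 to 1.79) and Nr1d2 1.13-fold lower (0.871 to 1.47). The remaining gene, Ciart, was 2.15-fold lower with an interval from 0.909 to 5.49 (background 16.2% lower and 9.48% higher). In macrophages 8 of 9 were again within 2-fold, and Nr1d1 was 4.75-fold lower (1.80 to 17.7; background 10.4% lower and 6.23% higher). The mirror-image of Arntl and the REV-ERB genes between these libraries was thus measured in fibroblasts, whose mesothelial share also differed. Within the mesothelial-like cluster alone, Nr1d1 was 11.0 against 37.2 CPM (3.40-fold lower, 1.496 to 9.53), Nr1d2 16.4 against 40.0 and Dbp 18.3 against 35.9. Arntl there was 9.13 CPM in late KIC (5 UMIs) against 5.45 in late KPfC (12 UMIs), on the same side as over all fibroblasts. These UMIs were below the minimum for a ratio, so the Arntl side of the mirror-image was not measured within this cluster.

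In late KPC against late KPfC, Per2 was higher in all 3 compartments that could be measured: 2.50-fold in fibroblasts (1.04 to 5.66), 3.23-fold in macrophages (2.06 to 4.94) and 7.78-fold in tumour epithelium (3.73 to 15.3). With mesothelial-like fibroblasts alone the fibroblast log2 ratio was 0.44, within 2-fold. In fibroblasts 1 of 6 members was higher (background 6.39%) and 2 lower (18.2%), Nr1d1 by 3.41-fold (1.40 to 10.8) and Nr1d2 by 2.76-fold (1.29 to 7.07). In macrophages 1 of 9 was higher (9.93%) and 4 lower (14.2%), of which Nr1d1 (5.87-fold, 1.59 to 49.1) and Nr1d2 (2.16-fold, 1.07 to 5.10) had intervals clear of 1. With macrophages taken by marker genes cell by cell in place of clusters, the Nr1d2 log2 ratio was 0.049. In tumour epithelium 4 of 8 were higher (14.0%) and 0 lower (10.2%). Nr1d2 was 2.34-fold higher there (1.27 to 4.01), opposite to its side in fibroblasts and macrophages, and Dbp (2.85-fold, 0.987 to 6.79) and Arntl (2.58-fold, 0.789 to 6.58) rested on 6 and 5 UMIs in late KPC. Dissociation-induced genes stood at least 2-fold higher in 7 of 16 in tumour epithelium and at least 2-fold lower in 5 of 16 in macrophages, and their part in these ratios was not tested.

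In late KPfC against normal pancreas, 4 of 9 members were lower in fibroblasts (background 13.5%) and 0 higher (14.9%). These were Per3 (10.05-fold, 5.41 to 20.7), Hlf (6.85-fold, 2.67 to 22.4), Dbp (4.05-fold, 3.11 to 5.34) and Tef (2.13-fold, 1.39 to 3.33). Late KPfC cells had Y-linked UMIs, and against the Y-only normal cells the log2 ratio was -1.05 for Dbp and -0.69, within 2-fold, for Tef. Nr1d1 was 1.35-fold lower (1.007 to 1.82), and Nr1d2 (1.24-fold lower, 0.938 to 1.65) and Per2 (1.03-fold lower, 0.522 to 2.04) lay near 1. In macrophages 5 of 7 were lower (17.1%). Dbp led at 6.90-fold (0.782 to 28.4, from 2 UMIs in normal pancreas). Nr1d2 was 6.82-fold (3.81 to 11.4) and Nr1d1 4.39-fold (1.73 to 9.36) lower. Tef and Per3, with 37 and 25 UMIs in late KPfC macrophages and 0 in normal ones, had no ratio. T or NK cells gave 1 measured member, Per1, 1.10-fold lower (0.327 to 5.80; background 5.11%).

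**Figure D2:**
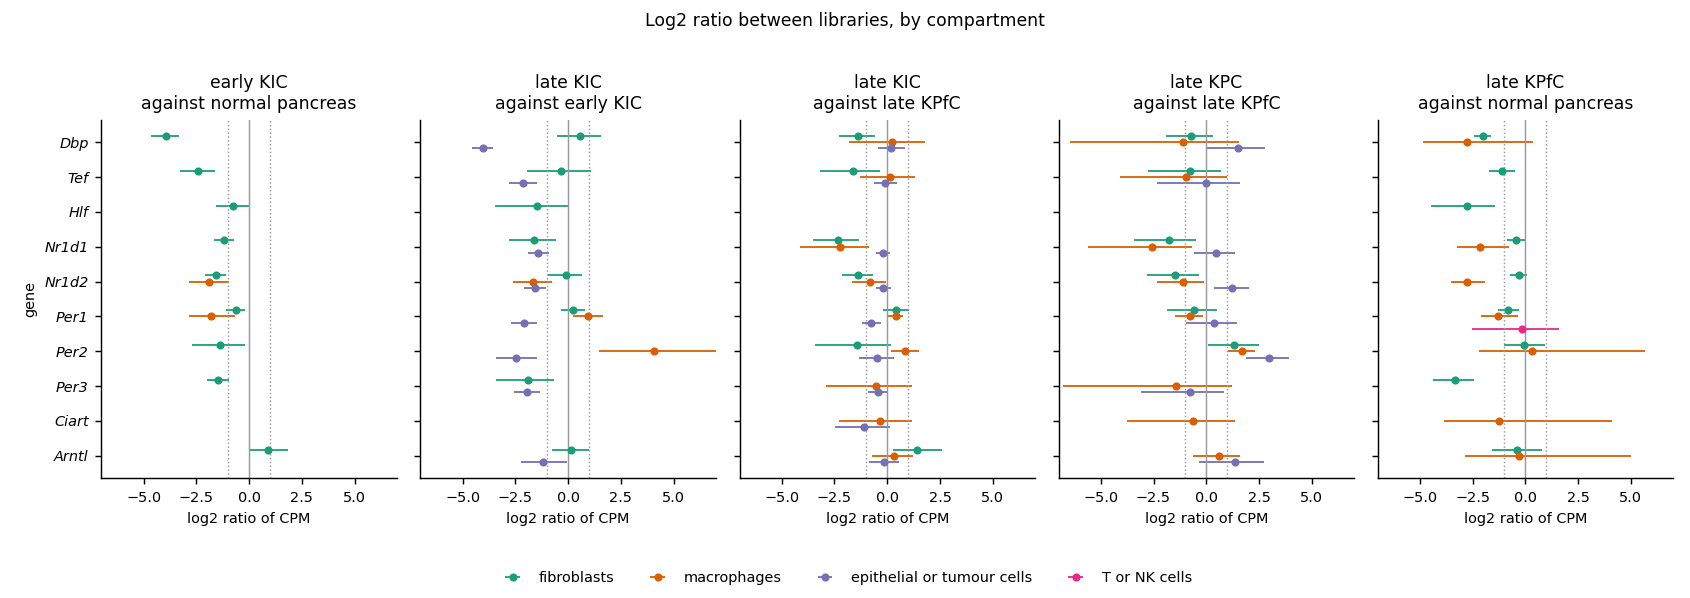
Log2 ratio of CPM between 2 libraries for each clock gene (rows) and compartment (colours), 1 panel per comparison. Bars are exact 95% counting intervals, cut off at the axis where they reach it, and dotted lines mark 2-fold. In late KPC against late KPfC the 3 Per2 points lie to the right, and in late KIC against early KIC all 8 epithelial or tumour points lie to the left.

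Members were also set side by side over compartments, without a share of all genes for the same count, so the numbers only describe them. Of the members measured in more than 1 compartment, 1 of 2 was at least 2-fold apart on the same side in all of them for early KIC against normal pancreas (Nr1d2), 2 of 8 for late KIC against early KIC (Nr1d1 and Per3), 0 of 9 for late KIC against late KPfC, 1 of 8 for late KPC against late KPfC (Per2) and 1 of 6 for late KPfC against normal pancreas (Dbp). Opposite sides past 2-fold were seen for Per2 in late KIC against early KIC and for Dbp and Nr1d2 in late KPC against late KPfC. For Dbp the macrophage value rested on 1 UMI in late KPC and both intervals included 1, and as a mean over single cells its macrophage log2 ratio was 0.0098. For Nr1d2 the macrophage log2 ratio was 0.049 by marker gates, and the fibroblast value ranged from -1.82 to -0.91 over the alternatives. Comparisons that share a library are not independent of each other. Fewer transcripts per cell and a different mix of cells within a compartment cannot be told apart in these sums.

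The compartments of 1 library share a preparation, so the level of a gene can also be set side by side between them. In early KIC the epithelial cells had 14.1 times the Dbp level of fibroblasts (8.78 to 23.5), 6.11 times the Tef (3.24 to 12.0), 5.61 times the Per2 (2.33 to 14.4) and 2.50 times the Nr1d1 (1.66 to 3.75), but 0.902 times the Arntl (0.398 to 1.86). In late KPfC the order was turned round, with Dbp in tumour epithelium 5.13-fold below fibroblasts (3.42 to 7.80). Per3 was the exception there, at 3.02 times the fibroblast level (1.61 to 6.26). Both kinds of cell differed between these libraries. Of the fibroblasts, 149 of 169 in late KPfC were mesothelial-like, against 36 of 1408 in early KIC. Of the epithelial cells, 348 of 355 in early KIC lay in the duct-like cluster and 485 of 495 in late KPfC in the epithelial tumour cluster. Macrophages of late KPfC had Dbp 21.4-fold below fibroblasts (12.8 to 37.1), although their Per1 was 0.971 times the fibroblast level (0.732 to 1.31).

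Endothelial-like cells of early KIC (22.6 CPM of Dbp, 8 UMIs, 196 cells) and its endocrine-like cells (16.7) lay between its fibroblasts and its epithelium, while its macrophages and acinar cells lay below its fibroblasts. Mesothelial-like cells had 150.5 CPM in normal pancreas (43 UMIs) and 18.3, 35.9 and 26.2 in late KIC, late KPfC and late KPC (10, 79 and 9 UMIs). Those of early KIC had 0 Dbp UMIs in 36 cells, at least 5.36-fold below normal. At Leiden resolution 2 the class parted by library. A cluster led by Slpi and Upk3b held 39 normal and 36 early KIC cells, and one led by Cxcl13 and Enpp2 held 6 normal, 0 early KIC, 36 late KIC, 160 late KPfC and 50 late KPC cells. The mesothelial-like cells of the late tumours are thus set beside normal cells that lay mostly in another cluster. In fibroblast-like clusters without mesothelial-like cells Dbp was 118 CPM in normal pancreas, 7.94 in early KIC and 5.97 in late KIC. In late KPC 52 such cells had 0 Dbp UMIs, so all 9 Dbp UMIs of its fibroblasts came from outside these clusters. The late KPC fibroblasts outside them were 48 mesothelial-like, 6 epithelial or tumour-like and 7 neutrophil-like cells. B-like cells ranged from 7.53 to 13.2 CPM on 1 to 4 UMIs.

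**Figure D3:**
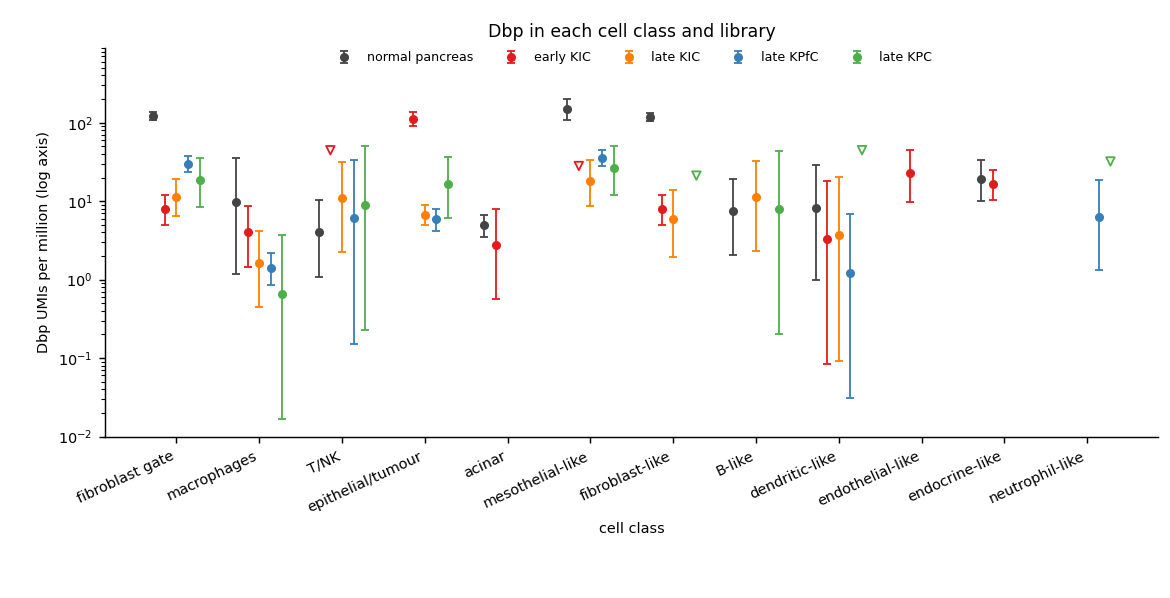
Dbp (CPM, log axis) in each cell class with at least 25 cells (red cells left out), coloured by library. Bars are exact 95% Poisson intervals and open triangles mark 0 UMIs, drawn at 3 counts. Fibroblasts by the collagen limit overlap the fibroblast-like and mesothelial-like clusters. Early KIC has 7.90 in fibroblasts and 111 in epithelial cells.

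The low Dbp of early KIC fibroblasts was seen in each fibroblast cluster the library filled. In the cluster led by Cxcl14 and Smoc2, the one that held many cells of both libraries at the resolution used, it was 9.93 CPM in 435 early KIC cells (7 UMIs) and 145.6 in 88 normal cells (55 UMIs), 14.7-fold lower (6.66 to 38.2). In the other early KIC clusters it was 5.93 CPM in 748 cells and 5.79 in 138 cells, and in the main normal cluster 115 CPM in 271 cells. At Leiden resolution 2 the clusters with Cxcl14 and Smoc2 among their leading genes were held nearly by 1 library each, one by 464 early KIC and 15 normal cells and the other by 124 normal and 5 early KIC cells, so the cells compared here may be of unlike kinds. The other members did not follow as a block within the cluster. Nr1d1 was 2.12-fold lower there (1.15 to 3.95) and Per3 1.87-fold lower (0.953 to 3.65), whereas Per1 was 35.5 CPM against 13.2 (25 and 5 UMIs), higher in early KIC and opposite to its side over all fibroblasts.

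Macrophage clusters of a library also differed. In late KPfC Nr1d1 was 40.0 CPM in a cluster of 122 cells (48 UMIs), 7.43 in a cluster of 568 and 1.62 in a cluster of 435. Per2 in that last cluster was 15.2 CPM (56 UMIs), against 3.05 in the 568 cells. The 105 late KIC cells of the same cluster had Per2 at 13.9 CPM (13 UMIs) and Nr1d1 at 1.07 (1 UMI), close to the late KPfC cells beside them, so the macrophage sums above depend on which clusters a library fills. Per2 of late KPC came mostly from 461 cells of another cluster, at 23.2 CPM (28 UMIs), where 160 late KIC cells had 9.70 (11 UMIs).

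Cells with Xist and cells with Y-linked UMIs of the same library, which may come from different mice, differed in Dbp and Per3. In normal fibroblasts Dbp was 161.9 CPM in 266 Xist-only cells (236 UMIs) and 62.5 in 87 Y-only cells (30 UMIs), 2.59-fold higher (1.77 to 3.93). Per3 was 60.4 and 22.9 CPM, 2.64-fold higher (1.40 to 5.47), and the other 6 measured members had intervals that included 1. With Xist-only cells first, 2 of 8 members were at least 2-fold higher (6.32% of 7393 genes) and 1, Per2, lower (3.02%). Within the main normal fibroblast cluster the Dbp gap was 155 against 37.3 CPM (4.17-fold, 2.27 to 8.53). More members were apart there, with Nr1d1 3.33-fold higher (1.21 to 12.8), Per3 3.01-fold (1.31 to 8.52) and Tef 2.37-fold (0.840 to 9.22). Within the Cxcl14 and Smoc2 cluster Dbp was 211.6 against 65.6 (3.23-fold, 1.29 to 10.4). Normal mesothelial-like cells showed no such gap, with 161.3 CPM in 25 Xist-only and 179.8 in 9 Y-only cells (0.897-fold, 0.432 to 1.94).

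Late KIC gave the same order for Dbp. In its fibroblasts Dbp had 15 UMIs in 44 Xist-only cells (21.8 CPM), all from 5 of them, and 0 in 29 Y-only cells, which allows up to 6.00 CPM, and Per3 had 2 and 3 UMIs. Of 2 measured members 0 passed 2-fold there (5.77% of genes higher, 5.13% lower). In its tumour cells Dbp was 11.5 CPM in 152 Xist-only cells (44 UMIs) and 1.98 in 78 Y-only cells (5 UMIs), 5.79-fold higher (2.30 to 18.7), and Per3 was 15.9 and 4.36 CPM, 3.65-fold higher (1.90 to 7.69). These were the 2 of 8 members past 2-fold there (4.74% of 10126 genes higher, 3.62% lower), and Arntl was 0.845-fold (0.397 to 1.84). Within the mesenchymal tumour cluster alone Dbp was 4.78-fold higher (1.87 to 15.6) and Per3 2.66-fold (1.31 to 5.96). In macrophages 1 of 2 measured members passed 2-fold (4.20% of genes higher, 2.70% lower), Per2, with 19.3 CPM in 94 Xist-only and 5.72 in 124 Y-only cells (3.38-fold, 1.24 to 10.6). Sex, mouse and, if the mice were taken at different times, hour cannot be told apart. Against the Y-only normal cells, Dbp of early KIC fibroblasts was still lower, with a log2 ratio of -2.98 in place of -3.95.

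**Figure D4:**
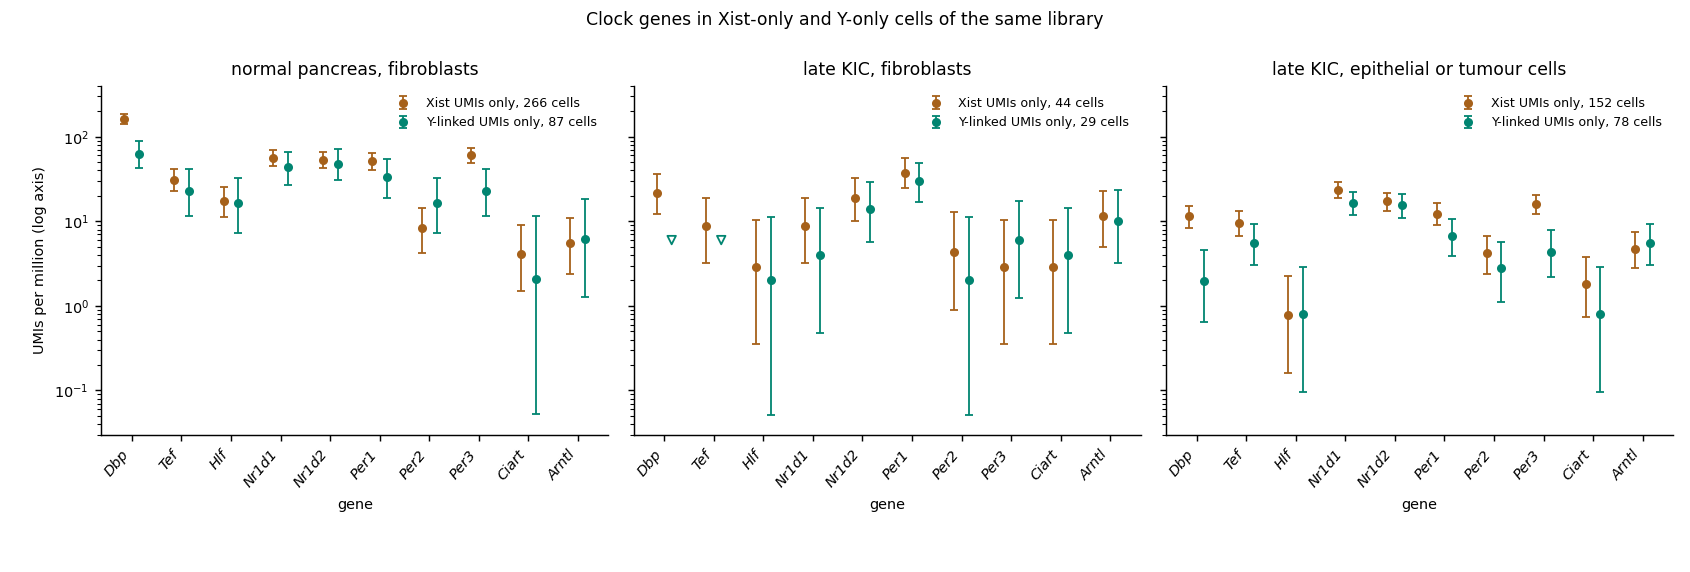
Clock genes (CPM, log axis) in cells with Xist and no Y-linked UMI and in cells with the reverse, for normal fibroblasts, late KIC fibroblasts and late KIC tumour cells. Bars are exact 95% Poisson intervals and open triangles mark 0 UMIs, drawn at 3 counts. Dbp is higher in the Xist-only cells of all 3 panels.

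Nr1d1 and Per2 RNA peak at different hours, and Arntl and Dbp nearly opposite each other. The split of UMIs within these pairs does not scale with the depth of a compartment, because both genes are counted in the same cells. It still depends on the kinds of cell, as Nr1d1 and Per2 differed between macrophage clusters of late KPfC. Per2 made up 15.2%, 13.4%, 30.8%, 19.0% and 66.7% of the Per2 and Nr1d1 UMIs in fibroblasts of normal pancreas, early KIC, late KIC, late KPfC and late KPC. In macrophages it made up 12.5%, 7.69%, 87.1%, 44.2% and 93.8%, and in epithelial or tumour cells of the tumours 25.8%, 14.5%, 17.3% and 54.2%. Late KPC had the highest share in each compartment, but its exact binomial interval overlapped that of the next highest tumour. These were 38.4% to 88.2% against 9.09% to 61.4% (late KIC) in fibroblasts and 79.2% to 99.2% against 70.2% to 96.4% (late KIC) in macrophages. In epithelial or tumour cells they were 32.8% to 74.4% against 15.5% to 38.5% (early KIC). Within late KIC the macrophages (70.2% to 96.4%) stood apart from tumour cells (9.58% to 20.6%). Arntl made up 5.23%, 61.4%, 54.5%, 14.6% and 10.0% of the Arntl and Dbp UMIs in fibroblasts of the libraries in the same order. In their macrophages it made up 33.3%, 53.8%, 75.0%, 73.7% and 90.0%, on 3, 13, 16, 76 and 10 UMIs. In epithelial or tumour cells it made up 9.26%, 42.0%, 48.0% and 45.5% in early KIC, late KIC, late KPfC and late KPC. In early KIC the fibroblast interval (47.6% to 74.0%) and the epithelial interval (4.53% to 16.4%) did not meet. In late KPfC they stood in the opposite order (7.80% to 24.2% against 36.3% to 59.8%), but its fibroblasts and epithelial cells were of other kinds, as given above.

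**Figure D5:**
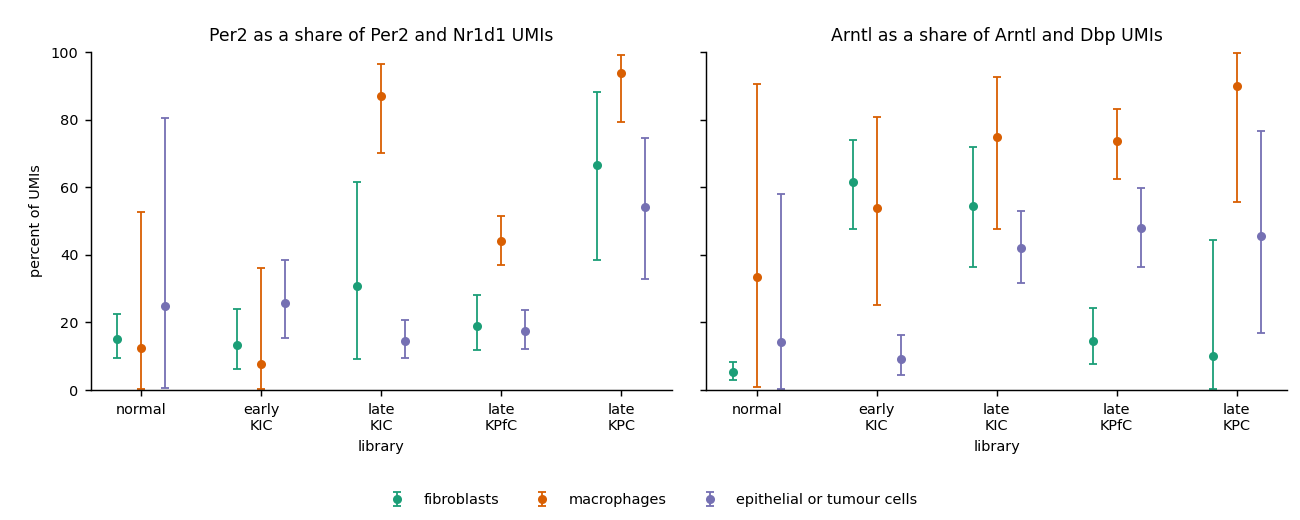
Per2 as a percentage of Per2 and Nr1d1 UMIs, and Arntl as a percentage of Arntl and Dbp UMIs, by library and compartment. Bars are exact 95% binomial intervals. The Per2 share is highest in late KPC in each compartment (66.7%, 93.8% and 54.2%), with intervals that overlap those of the next highest tumour. The Arntl share of early KIC is 61.4% in fibroblasts and 9.26% in epithelial cells.

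Of the 13 other genes of the clock loop, 11 were measured in fibroblasts of early KIC against normal pancreas. At least 2-fold lower were 2 and higher 2, beside 5.22% and 7.56% of all genes (median log2 ratio -0.40, all genes -0.02). Npas2, the partner that can replace Clock and that REV-ERB proteins repress like Arntl, was 11.9 CPM in early KIC (33 UMIs) and 0.421 in normal fibroblasts (1 UMI), 28.1-fold higher (4.71 to 1145). Timeless, a replication-fork gene named for a fly clock gene, was 8.98 against 2.95 CPM (3.05-fold higher). Cry2, the partner of the period proteins, was 12.6 against 37.9 CPM (3.01-fold lower). Clock itself, named after its values were seen, was 28.7 against 40.4 CPM, within 2-fold.

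Late KIC fibroblasts had 0 Npas2 UMIs, 5.17-fold below early KIC with the 0 set at 3 counts, although their Arntl was as high. Among epithelial or tumour cells of late KIC against early KIC, 6 of 11 other loop genes were lower and 2 higher. Beside them stood 27.5% and 13.5% of 11155 genes (median log2 ratio of the loop genes -1.01, all genes -0.34). Rora, the activator that competes with REV-ERB proteins, was 9.24 against 81.6 CPM (8.83-fold lower), while Bhlhe41, an E-box repressor, was 28.4 against 2.27 (12.5-fold higher, 215 and 2 UMIs). In macrophages of late KPfC against normal pancreas 3 of 9 loop genes were higher and 2 lower, beside 17.1% of 8448 genes each way. The median log2 ratio was 0.07 (all genes 0.06), and the E-box repressor Bhlhe40 led at 461.1 against 68.2 CPM (6.77-fold higher). Among 10 clock-controlled output genes in fibroblasts of early KIC against normal pancreas, 2 were lower and 0 higher (median log2 ratio -0.49). The shares of all genes were 5.22% and 7.56%. The 2 were Cys1, a cilium-associated gene, at 11.1 against 41.7 CPM (3.74-fold), and Wee1, a cell-cycle kinase, at 3.23 against 11.4 (3.52-fold). Of 10 glucocorticoid-induced genes 2 were lower there and 0 higher (median log2 ratio -0.60).

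Over the 20 sums of a library and a compartment with at least 30 cells, Tef followed Dbp most closely among the members (Pearson r of log2(CPM + 1) 0.81), then Per3 (0.70), while Arntl did not (0.11). Among 7559 other genes the closest to Dbp were Gstm5 (r = 0.87), Ccl27a (0.86), Lzts2 (0.84), Gstt1 (0.83) and Csad (0.82), and the closest to Arntl were Foxj2 (0.87), Rexo4 (0.84), Agpat1, Krr1 and Ankle2 (each 0.83). These sums share libraries and differ in depth and cell kind, so the values only describe them.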

How the data were processed

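Single-cell RNA was measured in 5 libraries, 1 per group. The deposited values are integer UMI counts per gene and cell barcode. Per the submitters' processing notes the authors used Cell Ranger 2.1.1 and GRCm38. Neither the annotation release nor the use of strand is given in the sources used here, and reads of overlapping genes may be shared. Depth per library was 3488871 to 26749820 UMIs.

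Barcodes with at least 200 genes, 500 UMIs and at most 20% mitochondrial UMIs were kept. Doublets were not removed. Cells were clustered with scanpy 1.11.5 (2000 variable genes, 30 principal components, 15 neighbours, Leiden resolution 1) without clock and sex-linked genes. Clusters were named by markers, with a scoring rule settled after the clusters were seen, and 1 of 31 stayed unnamed. UMIs were summed per library and compartment and divided by the compartment's total (CPM), with exact 95% Poisson intervals. Ratios have exact conditional binomial intervals, computed with scipy 1.17.1 and checked on simulated data, and no test was run because each group has 1 library. For ratios and figures a count of 0 is set at 3 counts, and no ratio is given where this would reverse its side. The 10 members and all gene lists were chosen with earlier results of these data known. Named genes are all members, from each other list the 3 with the largest difference past 2-fold per comparison and compartment, and the 5 genes most like Dbp and Arntl. The alternatives are 15 planned ones and 2 added after the data were seen. Some items are not reported here.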

Additional observations from a re-analysis of the deposited data

Results flagged for a closer look

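Each pattern below was picked out because a gene stood on opposite sides in 2 compartments of the same pair of libraries, and none of these differences was tested. In late KIC against early KIC, the log2 ratio of Per2 was 4.05 in macrophages and -2.46 in epithelial or tumour cells, 6.51 apart, with 1 Per2 UMI in the macrophages of early KIC. Per1 in the same comparison was at 0.92 and -2.10, 3.02 apart. Per1 in late KIC against late KPfC was at 0.40 in macrophages and -0.75 in tumour cells, 1.15 apart, with both values within 2-fold. Nr1d2 in late KPC against late KPfC was at 1.22 in tumour epithelium, 2.69 above its value in fibroblasts (-1.47) and 2.34 above its value in macrophages (-1.11).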

How the results depend on the processing

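Counts of members past 2-fold, summed over compartments, were 8 lower and 0 higher for early KIC against normal pancreas and 12 and 1 for late KIC against early KIC. They were 7 and 1 for late KIC against late KPfC, 6 and 6 for late KPC against late KPfC, and 9 lower for late KPfC against normal pancreas. The members that could be measured differed between settings, and shares of all genes were given above only for single compartments, so these sums are a description. With cells thinned to 1000 UMIs, which leaves fewer genes measured, 1 was higher in early KIC against normal, 2 lower and 2 higher in late KIC against early KIC, 0 and 0 in late KIC against late KPfC, and 0 lower and 1 higher in late KPC against late KPfC. With Xist-only cells of the mixed libraries 1 was higher in early KIC against normal, 4 lower and 4 higher in late KIC against late KPfC, and 5 lower in late KPfC against normal. With Y-only cells the counts were 4 lower and 1 higher in early KIC against normal, 0 higher in late KIC against both early KIC and late KPfC, and 3 lower in late KPfC against normal.

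With fibroblast-like clusters alone, late KPfC had 18 fibroblasts, under the minimum of 30 cells, so fibroblasts could not be compared with it. The 2 lower and 0 higher in late KIC against late KPfC, and 5 lower in late KPfC against normal, came from macrophages and tumour cells. Of the 2 alternatives chosen after seeing the data, mesothelial-like cells alone gave 5 lower in early KIC against normal and 0 higher in late KIC against late KPfC. In the main sums the higher gene was Arntl, which had too few UMIs in these cells to be measured. The other alternative, the fibroblast cluster led by Cxcl14 and Smoc2, gave 4 lower and 1 higher in early KIC against normal. It held 0 cells of late KIC, late KPfC and late KPC, so comparisons with those libraries had no fibroblast ratio. Late KIC against late KPfC (2 lower and 0 higher) and late KPfC against normal (5 lower) again kept only macrophage and tumour-cell counts. A collagen limit of 100 gave 1 higher in early KIC against normal and 4 lower in late KIC against late KPfC, and marker gates gave 1 higher in early KIC against normal and 2 higher in late KIC against early KIC. With at least 50 UMIs, 5 were lower in early KIC against normal, 0 higher in late KIC against early KIC, 4 lower and 0 higher in late KIC against late KPfC, and 2 higher in late KPC against late KPfC. At 3-fold, 4 were lower in early KIC against normal, 3 lower and 0 higher in late KIC against late KPfC, and 2 lower and 2 higher in late KPC against late KPfC. Without the tenth of cells with the most UMIs, 3 were lower in late KPC against late KPfC.

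The Dbp log2 ratio in fibroblasts of early KIC against normal was -3.13 thinned, -2.98 with Y-only cells and -2.43 in mesothelial-like cells, where the 0 UMIs of early KIC were set at 3 counts, and it stayed past 2-fold in 14 of 14 alternatives. In late KPfC against normal it was -1.35 thinned, -2.43 with Xist-only and -1.05 with Y-only cells, and in late KIC against late KPfC -0.47 with Xist-only cells. In macrophages of late KPC against late KPfC, Dbp was at 0.0098 as a mean over single cells and Nr1d2 at 0.049 by marker gates, both on the other side. All other values, 179 of the main ones and 538 of the single genes, moved by less than their counting interval or stayed within 1.5 times, and 16 further single-gene values moved by more on the same side. Where a value moved, the cause was not tested, apart from the fewer cells or genes measured. No paired analysis was possible because each group has 1 library.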
